A study of Mus musculus with 12 samples.

Results

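Transcripts of 9 genes of carnitine synthesis, uptake and acyl transfer were followed in mouse liver: Tmlhe, Aldh9a1, Bbox1, Slc22a5, Cpt1a, Slc25a20, Cpt2, Crat and Crot. They were chosen by name for their roles, with earlier results of these data known, and are 9 of the 34986 genes in the deposited table. All 9 are in the table, and all 9 passed the filter on low values (1 normalized count or more in 6 or more of the libraries). The livers came from female C57BL/6 mice aged 16 weeks, 6 in the group VPA, which received the anticonvulsant valproic acid, a drug with known liver toxicity, and 6 in the group VPA_OCA, which received it with obeticholic acid (OCA). OCA is a synthetic agonist of FXR, the bile acid receptor of the nucleus, whose part in VPA hepatotoxicity is the subject of the series. VPA is common to both groups. Its dose and duration are not stated in the labels, and untreated mice were not analysed here. Each difference is therefore between VPA with OCA and VPA alone.

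Carnitine is the small molecule to which fatty acyl groups are joined to cross the inner mitochondrial membrane. Liver is among the organs that finish its synthesis from trimethyllysine, and it also takes carnitine up from blood. Long-chain acyl groups pass from coenzyme A to carnitine by Cpt1a, through the membrane by Slc25a20 and back to coenzyme A by Cpt2, while Crat and Crot transfer short and medium chains. VPA is a branched-chain fatty acid that is itself activated and joined to carnitine, and its use is known to lower carnitine in blood.

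Values are the authors' normalized counts, read numbers that the authors scaled library by library. Library totals were 20236900 to 22087711 on that scale, and the depth before scaling was estimated at 17879222 to 22021646 reads in 11 libraries and at 37746632 in VPA_OCA replicate 1. A mean is followed by its SD, over n = 6 libraries in each group unless stated. Differences are log2 fold changes of VPA_OCA over VPA on log2(normalized count + 1) from limma, a linear model fitted to all 19006 genes that passed the filter, with Benjamini-Hochberg adjustment over all of them and a threshold of 0.05. Libraries numbered 1 to 3 stood apart from those numbered 4 to 6 in both groups. The mitochondrial share of a library, for example, was 9.09% to 11.7% in the former and 5.84% to 7.51% in the latter. No batch is named in the labels, so values within each set of numbers are given beside the results. The liver markers Alb, Ttr, Apoa1 and 5 others were present in every library, and none of these 8 passed the test. Skeletal muscle transcripts were found chiefly in VPA replicates 4 and 5, with the muscle actin gene Acta1 at 164 and 24.9 there and at most 3.22 in any VPA_OCA library. The 8 muscle markers together summed to between 9.49 and 536 in VPA and between 13 and 30.1 in VPA_OCA. No gene of the lists for cholangiocytes, endothelial cells, Kupffer cells, stellate cells and adipocytes (5 each) passed, and no marker was at 0 in every library. All 5 endothelial and all 5 adipocyte markers had negative log2 fold changes, as did 4 of 5 Kupffer cell markers. So did 4 of 5 stellate cell, 3 of 5 cholangiocyte and 6 of 8 liver markers and the 3 muscle markers tested. Over all genes tested 50.1% of values were negative. The endothelial, adipocyte, Kupffer and muscle medians differed in sign between the sets of numbers. They were 0.11 within 1 to 3 and -0.58 within 4 to 6 (endothelial), 0.30 and -1.01 (adipocyte), 0.21 and -0.47 (Kupffer) and 0.30 and -2.46 (muscle). The others were negative in both sets, at -0.11 and -0.21 (stellate), -0.27 and -0.10 (cholangiocyte) and -0.07 and -0.06 (liver). The endothelial marker Lyve1 measured 164 ± 32.5 and 105 ± 23.5 normalized counts in VPA and VPA_OCA, with a limma adjusted p of 0.12, or of 0.031 with the numbers as a term. Summed levels ran from 1865 to 3370 in VPA and 1854 to 2791 in VPA_OCA (endothelial), and from 307 to 834 and 407 to 629 (adipocyte). Of the adipocyte markers, Lipe ran from 159 to 587 over the libraries and Fabp4 from 65.7 to 198. Adipoq, Plin1 and Cfd reached at most 20.8, 4.16 and 55.1. Mean levels in VPA and VPA_OCA were 1.54 ± 1.41 and 1.58 ± 1.86 for Plin1, and 10.1 ± 14.2 and 12.3 ± 22.1 for Cfd. The part of these cells in the results below was not tested.

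None of the 9 carnitine genes passed the test in either direction, where 0.721% of all genes tested did (137 of 19006, by limma) and 0.279% did in the lower direction. In whole liver, fewer cells of a type and less RNA per cell cannot be told apart. At an unadjusted p under 0.05, 3 of the 9 lay lower in VPA_OCA and none higher, against 9.55% of all genes in either direction and 4.25% in the lower direction. These were the acetyltransferase Crat (1.33-fold lower), the carnitine uptake carrier Slc22a5 (1.29-fold lower) and the inner-membrane transferase Cpt2 (1.17-fold lower). Of the 9 log2 fold changes 6 were negative and 3 positive, with a median of -0.04, and 50.1% of all genes tested had a negative one. The 3 positive values were those of the synthesis genes Tmlhe, Aldh9a1 and Bbox1. With the replicate number as a block, which raised the count over all genes from 137 to 210 (1.1%), the 9 still had limma adjusted p-values of 0.15 to 0.98. A term for numbers 1 to 3 against 4 to 6 raised that count to 404 (2.13%), with limma adjusted p-values of 0.083 to 0.98 for the 9.

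In the authors' deposited table, Slc22a5 had a log2 ratio of -0.36 with an adjusted p of 0.0283 and Crat a log2 ratio of -0.41 with an adjusted p of 0.0338. Both passed 0.05 there, as did 5.57% of the 12517 genes that the authors call present, 2.23% in the lower direction. The other 7 had adjusted p-values from 0.18 (Cpt2) to 0.974 (Crot) in the authors' deposited table. The sizes of the Slc22a5 and Crat differences were nearly the same in both analyses, and the calls differed.

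**Figure D1:**
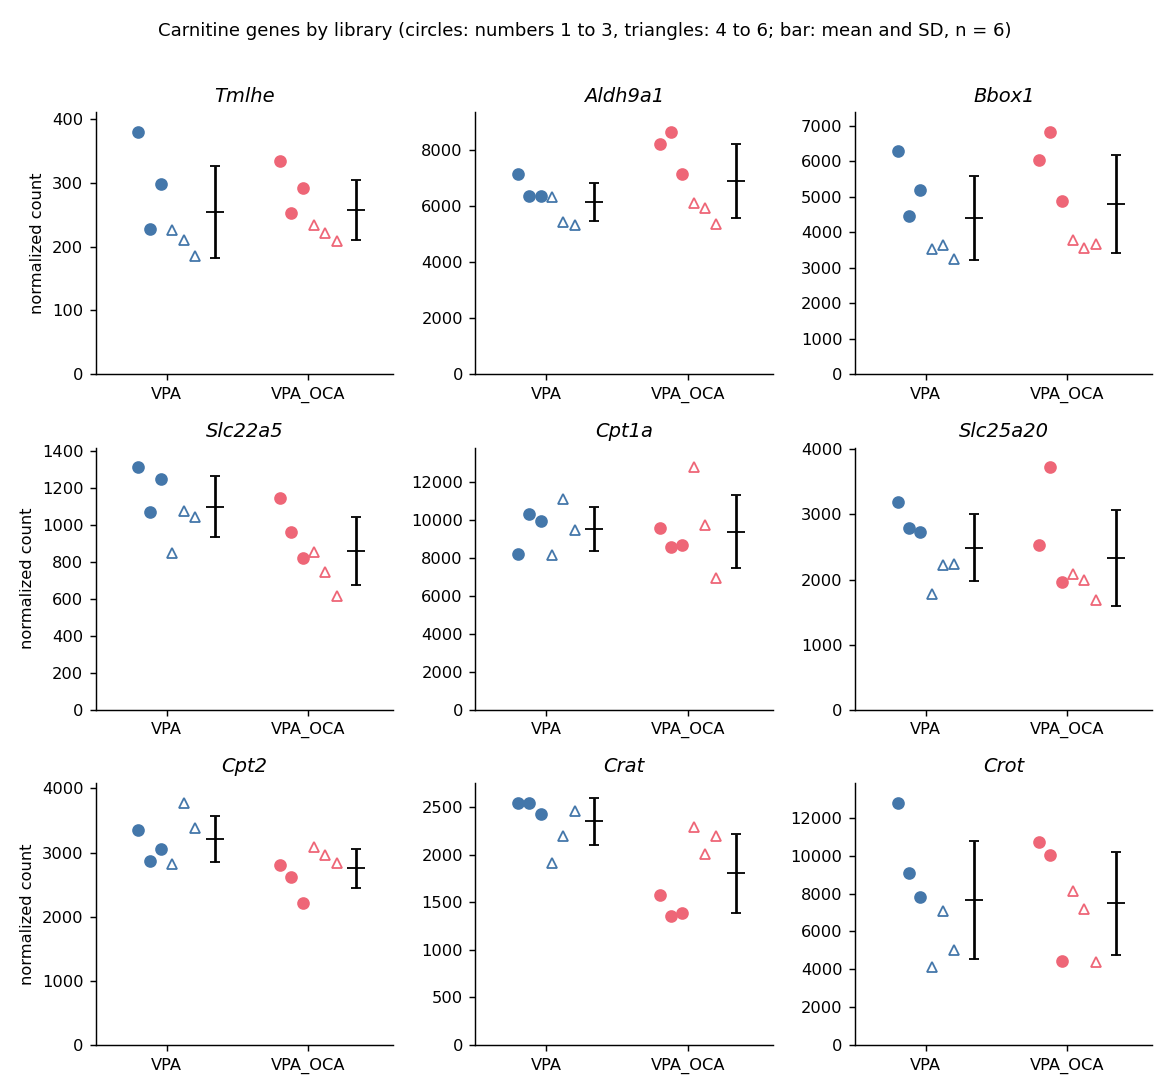
Normalized count of each carnitine gene (vertical axes, each starting at 0) in the 6 VPA libraries (blue) and 6 VPA_OCA libraries (red), with circles for numbers 1 to 3, triangles for 4 to 6 and black bars for the mean and SD. The VPA_OCA circles of Crat lie at 1357 to 1577, below all 6 VPA libraries, whereas its triangles lie among them.

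Carnitine synthesis starts in mitochondria with Tmlhe, the trimethyllysine hydroxylase (ENSMUSG00000079834, on the unplaced scaffold GL456233.1 at 159647 to 334183, plus strand, of the authors' table). Its level in VPA had a lowest value of 184.7, a median of 226.5 and a highest of 379.6 normalized counts, and in VPA_OCA these were 209, 244 and 333.5. The VPA_OCA libraries all lay inside the range of the VPA libraries. Means were 254 ± 72 and 257 ± 47.1, with a log2 fold change of 0.04 ± 0.17 (SE), a 95% confidence interval of -0.32 to 0.40 and a limma adjusted p of 0.98.

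Aldh9a1, the aldehyde dehydrogenase that makes gamma-butyrobetaine (ENSMUSG00000026687, chromosome 1, 167349991 to 167368532), ranged from 5329 to 7132 in VPA with a median of 6331. In VPA_OCA it ranged from 5342 to 8636 with a median of 6618. Of the VPA_OCA libraries 3 lay above all 6 VPA libraries, replicates 1 (8198), 2 (8636) and 3 (7133), and the other 3 lay within the VPA range. Replicate 3 exceeded the highest VPA library (7132) by a margin far below the spread. The share of all genes with 3 VPA_OCA libraries above all VPA libraries was not counted. The means of 6149 ± 676 and 6888 ± 1325 gave a log2 fold change of 0.15 ± 0.13 (SE; limma adjusted p = 0.80). Within numbers 1 to 3 the log2 fold change was 0.27 and within 4 to 6 it was 0.03 (limma adjusted p = 0.42 and 0.95 within those sets, n = 3 each). The test of the difference between the sets did not pass (limma adjusted p = 0.71).

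Bbox1, the hydroxylase of the last step, makes carnitine from gamma-butyrobetaine (ENSMUSG00000041660, chromosome 2, 110262697 to 110314560). Its levels ran from 3257 through a median of 4048 to 6302 in VPA and from 3548 through 4340 to 6830 in VPA_OCA. The groups overlapped over nearly their whole range. Means were 4399 ± 1175 and 4790 ± 1380, with a log2 fold change of 0.12 ± 0.19 (SE), a confidence interval of -0.30 to 0.53 and a limma adjusted p of 0.92.

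The synthesis genes followed the replicate numbers more closely than the treatment. Bbox1 measured 4461 to 6830 in the 6 libraries numbered 1 to 3 and 3257 to 3795 in those numbered 4 to 6, so the sets did not overlap (ratio of means 1.57). Aldh9a1 did not overlap either, at 6346 to 8636 and 5329 to 6316. Tmlhe, at 227 to 379.6 and 184.7 to 234.5, overlapped slightly. Over all genes tested, 4.97% lay higher in every library of 1 to 3 than in any of 4 to 6, and 5.65% lower. What the numbers stand for was not tested. None of the 4 carnitine acyltransferases (Cpt1a, Cpt2, Crat and Crot) separated the sets, but Crot had a ratio of means of 1.53 and Slc25a20 one of 1.41.

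Slc22a5 encodes OCTN2, the sodium-dependent carrier that brings carnitine into cells (ENSMUSG00000018900, chromosome 11, 53864542 to 53891660, minus strand). In VPA it measured 1312, 1069, 1247, 846, 1073 and 1044 normalized counts in replicates 1 to 6. In VPA_OCA it measured 1146, 964, 820, 854, 746 and 616. Of the VPA_OCA libraries 3 lay below all VPA libraries (replicates 3, 5 and 6), and replicate 1 lay above 4 of the 6 VPA libraries. How many of all genes have 3 such low libraries was not counted. The means were 1099 ± 165 and 858 ± 182, with a log2 fold change of -0.37 ± 0.14 (SE), a 95% confidence interval of -0.67 to -0.07 and a limma adjusted p of 0.37.

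The Slc22a5 difference was of like size in both sets of numbers, with a log2 fold change of -0.32 within 1 to 3 and -0.42 within 4 to 6 (limma adjusted p = 0.40 and 0.27, n = 3 per group). Means were 1209 ± 126 and 976 ± 163 within 1 to 3, and 988 ± 123 and 739 ± 119 within 4 to 6. With the numbers as a term its limma adjusted p was 0.083, the lowest of the 9 genes, and with the replicate block it was 0.15. Without VPA replicates 4 and 5, which held the muscle transcripts, the log2 fold change was -0.47 (limma adjusted p = 0.24).

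The related carriers lie close to Slc22a5 in sequence, and reads shared between them could make each level uncertain, which was not tested. Slc22a4, the ergothioneine carrier OCTN1, measured 64.3 ± 12.6 in VPA and 78.9 ± 11.7 in VPA_OCA. Slc22a21, a carnitine carrier known mostly from testis, measured 20.3 ± 8.55 and 25.6 ± 6.65. Both log2 fold changes were positive (0.30 and 0.39, limma adjusted p = 0.57 and 0.74), unlike that of Slc22a5, and neither passed.

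In the mitochondrial shuttle, Cpt1a is the outer-membrane enzyme that commits long-chain fatty acids to oxidation and is inhibited by malonyl-CoA (ENSMUSG00000024900, chromosome 19, 3323301 to 3385732). Its levels ran from 8165 through a median of 9720 to 11110 in VPA and from 6973 through 9132 to 12800 in VPA_OCA. The VPA_OCA group held both the lowest library (replicate 6) and the highest (replicate 4) of all 12. Means were 9541 ± 1179 and 9393 ± 1936, with a log2 fold change of -0.04 ± 0.13 (SE; limma adjusted p = 0.97). The 95% confidence interval of the fold change ran from 0.80 to 1.19.

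Slc25a20 is the translocase that exchanges acylcarnitine for carnitine across the inner membrane (ENSMUSG00000032602, chromosome 9, 108662088 to 108684641). It measured 1771 to 3198 in VPA (median 2486) and 1682 to 3727 in VPA_OCA (median 2042). The highest of the 12 was VPA_OCA replicate 2, and the other 5 VPA_OCA libraries lay between 1682 and 2537. The means of 2492 ± 510 and 2331 ± 738 gave a log2 fold change of -0.12 ± 0.18 (SE; limma adjusted p = 0.90).

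Cpt2 returns the acyl group to coenzyme A inside the mitochondrion (ENSMUSG00000028607, chromosome 4, 107903981 to 107923610). It measured 3354, 2865, 3059, 2828, 3781 and 3386 in VPA replicates 1 to 6 and 2803, 2618, 2212, 3089, 2968 and 2830 in VPA_OCA. Of the VPA_OCA libraries 3 lay below every VPA library, all of them numbered 1 to 3, and the share of all genes like this was not counted. Its means were 3212 ± 365 and 2753 ± 309, and its SD was 11.4% and 11.2% of the mean. The log2 fold change was -0.22 ± 0.10 (SE), with a confidence interval of -0.44 to -0.01 and a limma adjusted p of 0.51. It was -0.29 within numbers 1 to 3 and -0.16 within 4 to 6.

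**Figure D2:**
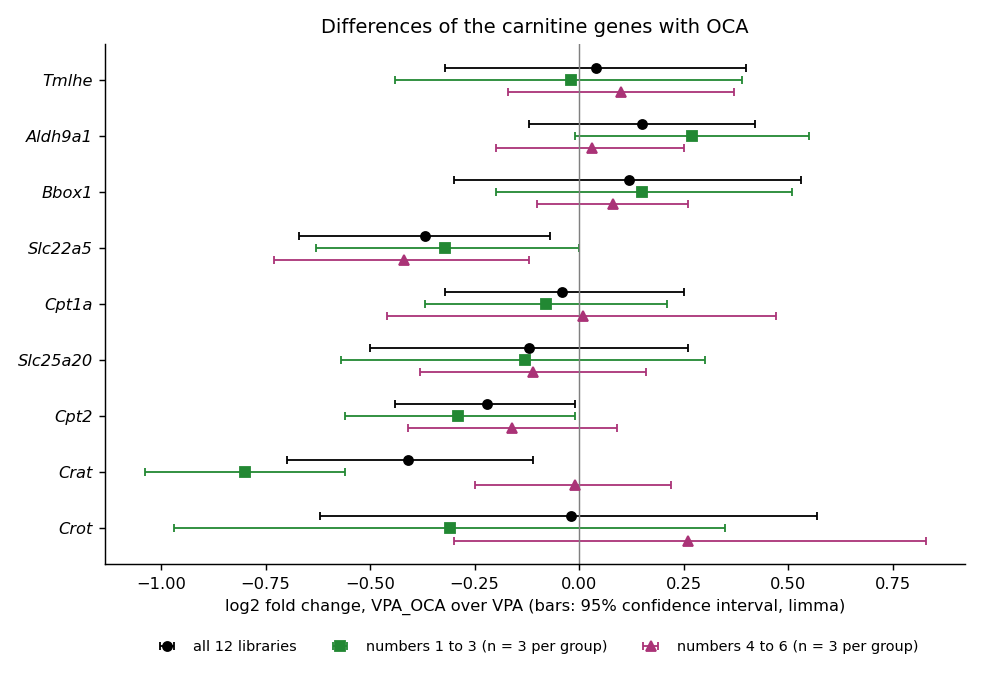
Log2 fold change of VPA_OCA over VPA for each carnitine gene (horizontal axis) with its 95% confidence interval from limma, for all 12 libraries (black), numbers 1 to 3 (green) and numbers 4 to 6 (purple). The Crat value is -0.80 in numbers 1 to 3 and -0.01 in 4 to 6, whereas the Slc22a5 value is -0.32 and -0.42.

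Crat moves acetyl and other short acyl groups between coenzyme A and carnitine in mitochondria and peroxisomes (ENSMUSG00000026853, chromosome 2, 30400471 to 30415813, minus strand). In VPA it measured 2544, 2548, 2427, 1916, 2201 and 2457 in replicates 1 to 6. In VPA_OCA it measured 1577, 1357, 1388, 2292, 2004 and 2197. VPA_OCA replicates 1 to 3 lay below every VPA library, and replicates 4 to 6 lay within the VPA range. The share of all genes with this pattern was not counted. Means were 2349 ± 247 and 1802 ± 414, with a log2 fold change of -0.41 ± 0.14 (SE), a confidence interval of -0.70 to -0.11 and a limma adjusted p of 0.28.

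Within numbers 1 to 3 Crat was 2506 ± 68.7 in VPA and 1441 ± 119 in VPA_OCA (n = 3 each). That log2 fold change of -0.80 ± 0.11 (SE) passed the test within that set (limma adjusted p = 0.007), as did 0.637% of all genes and 0.253% in the lower direction. Crat and Cpt2 were the 2 of the 9 whose VPA_OCA libraries 1 to 3 all lay below VPA libraries 1 to 3, as in 8.62% of all genes, and none of the 9 did so within 4 to 6, as in 7.31%. Within 4 to 6 Crat was 2191 ± 271 and 2164 ± 147, a log2 fold change of -0.01 with a confidence interval of -0.25 to 0.22 (limma adjusted p = 0.98), and 0.5% of all genes passed in that set. The test of the difference between the sets, as an interaction term, gave 0.79 ± 0.15 (SE) with an unadjusted p of 9.5e-05 in limma, but did not pass over all genes (limma adjusted p = 0.15, where 2 genes, 0.0105%, passed). Over 22 alternatives of that fit its adjusted p ranged from 0.092 to 0.45. No other carnitine gene passed within either set.

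Crot transfers the medium chains that peroxisomes produce to carnitine (ENSMUSG00000003623, chromosome 5, 8966033 to 8997324). It measured 12820, 9088, 7826, 4124, 7071 and 5027 in VPA replicates 1 to 6 and 10740, 10060, 4438, 8135, 7166 and 4363 in VPA_OCA. It was the most variable of the 9 genes within groups, with an SD of 40.7% of the mean in VPA and 36.2% in VPA_OCA, and its highest library was 3.11 times its lowest. Means were 7659 ± 3114 and 7484 ± 2712, and the log2 fold change of -0.02 ± 0.28 (SE; limma adjusted p = 1) had a confidence interval of -0.62 to 0.57. Of the 9 intervals this was the widest.

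Levels of different genes can be compared only per length. In the authors' FPKM values (scaled for gene length and library total) for VPA, Aldh9a1 was highest at 240 ± 27.6, followed by Crot (159 ± 63.2), Cpt2 (153 ± 15.4), Cpt1a (104 ± 14.1), Bbox1 (84.1 ± 21.3), Crat (79.5 ± 8.31), Slc25a20 (65.3 ± 13), Slc22a5 (33 ± 4.35) and Tmlhe (5.26 ± 1.39). The order of the 9 means was the same in VPA_OCA. In VPA, neighbours whose means ± SD did not overlap were Cpt2 and Cpt1a, Slc25a20 and Slc22a5, and Slc22a5 and Tmlhe. The length in the authors' table equalled, within 1 base, the mean over all transcripts in GENCODE M21, short fragments included, for 7 of the 8 genes found there. The exception was Cpt1a (4300 bases against a mean of 1480), and Tmlhe was not found. For Cpt2 that mean was 976 bases, whereas its longest protein-coding transcript there has 2372. For Crat it was 1379 bases over 13 transcripts, with a longest of 4224.

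Rescaled to the longest protein-coding transcript, an alternative chosen after the data were seen, Crot (119 ± 47.4), Cpt1a (103 ± 14) and Aldh9a1 (101 ± 11.7) were highest in VPA, with overlapping means ± SD. Slc25a20 (65.2 ± 13), Cpt2 (63.1 ± 6.33) and Bbox1 (50.9 ± 12.9) came next, then Crat (26 ± 2.71), Slc22a5 (16.7 ± 2.2) and Tmlhe, for which the authors' length was kept. Slc22a5 and Tmlhe were the lowest under both lengths, while Slc25a20 moved most, from rank 7 to rank 4 in VPA. Cpt2 moved from rank 3 to 5, Aldh9a1 from 1 to 3, Cpt1a from 4 to 2, Crot from 2 to 1, Bbox1 from 5 to 6 and Crat from 6 to 7. The rescaled order was not the same in VPA_OCA, where Aldh9a1 ranked 2, Cpt1a 3, Bbox1 5 and Cpt2 6.

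**Figure D3:**
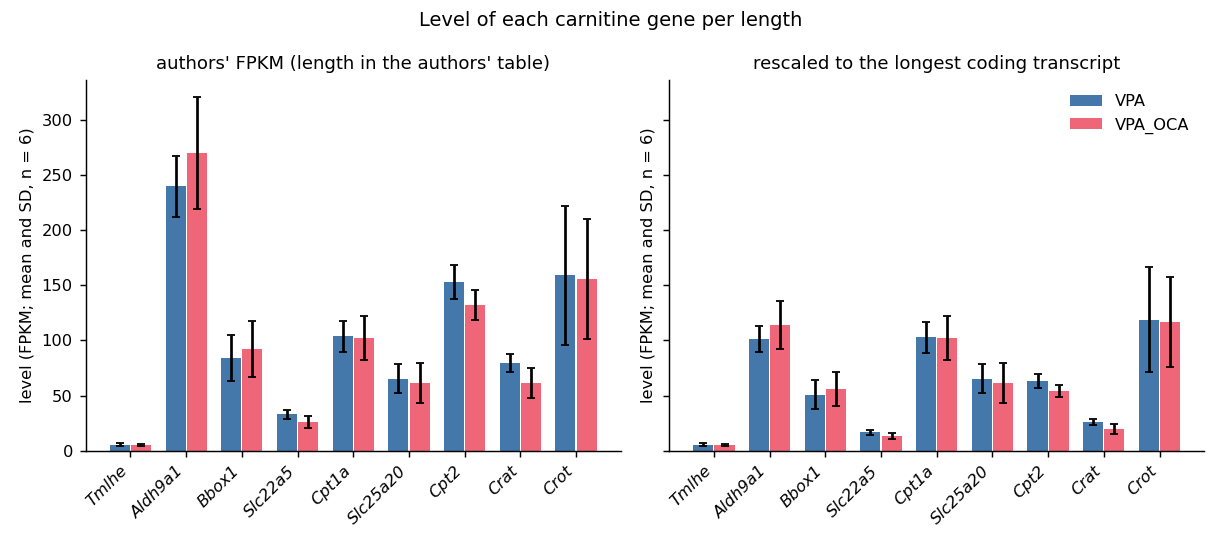
Level per length of each carnitine gene (vertical axis, FPKM, mean with SD as error bar, n = 6) in VPA (blue) and VPA_OCA (red), with the authors' length on the left and the longest coding transcript on the right. In VPA, Aldh9a1 stands at 240 on the left and 101 on the right, Cpt2 at 153 and 63.1, and Cpt1a at 104 and 103.

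Across the 12 libraries the 9 genes followed different patterns, given here as Pearson r of log2 values with no test, since the points share libraries, depth and replicate numbers. Bbox1 and Aldh9a1 had the highest of the 36 pairwise values (0.90), followed by Bbox1 and Tmlhe (0.83), Crot and Slc25a20 (0.83) and Bbox1 and Slc25a20 (0.80). Cpt2 and Crat went together at 0.73. Aldh9a1 went against both of them, at -0.54 with Cpt2 and -0.68 with Crat. Cpt1a had no r above 0.38 with any of the others. After removal of the group means, the value of Cpt2 with Crat was 0.57. Slc22a5 then had values of 0.72 to 0.82 with Tmlhe, Bbox1, Aldh9a1, Crot and Slc25a20, against 0.34 to 0.73 before. Its value with Cpt2 went from 0.42 to 0.09 and that with Crat from 0.25 to -0.22.

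**Figure D4:**
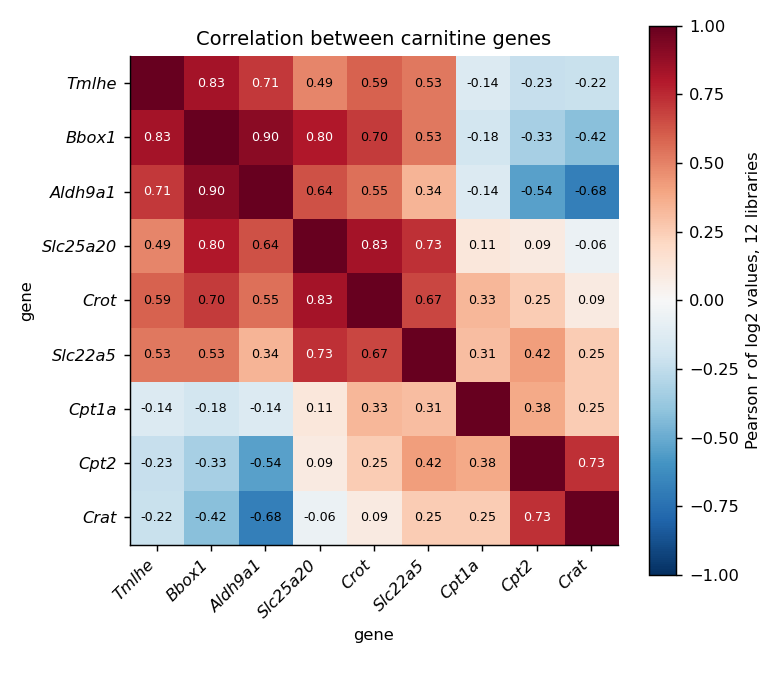
Pearson r of log2 normalized counts over the 12 libraries for each pair of carnitine genes (both axes list the genes; red is positive, blue negative). The synthesis genes, Slc25a20, Crot and Slc22a5 form a block of positive values from 0.34 to 0.90, and Aldh9a1 with Crat is the most negative at -0.68.

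Among 8931 named genes with a mean normalized count of at least 100, those most like each carnitine gene over the 12 libraries had r values between 0.84 and 0.99. Slc25a20 was most like Eci1, an enoyl-CoA isomerase of fatty acid oxidation (0.98), and Dhrs4, a peroxisomal dehydrogenase/reductase (0.98). Slc22a5 was most like Aldh3a2, the fatty aldehyde dehydrogenase (0.97), and Ppat, of purine synthesis (0.94). Crat was most like Srd5a3, a polyprenol reductase (0.94), and the paraoxonase Pon2 (0.94). Cpt2 was most like the protein S gene Pros1 (0.93) and Fmo1 (0.91). Bbox1 was most like Eif3j2 and Mob4 (0.99 each), and Aldh9a1 most like Manea (0.98) and Ccdc90b (0.97). For Crot these were Dhx36 and Tmem56 (0.95 each), and for Tmlhe Mtx2 (0.93) and Zfp606 (0.91). Cpt1a had the weakest partners, the chloride channel gene Clcn2 and the sarcosine dehydrogenase gene Sardh (0.84 each).

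Promoter windows of 300 bases (250 before and 50 after each gene's start, RefSeq, GRCm38.p6) were found for 7 of the 9 genes, all but Tmlhe and Crat. They were searched on both strands for AGGTCANAGGTCA, the direct repeat (DR1) bound by PPARA with RXR, the fatty acid receptor known to induce several shuttle genes, and for AGGTCANTGACCT, the inverted repeat (IR1) bound by FXR with RXR. With up to 2 mismatches, DR1 was found in 2 of the 7, Aldh9a1 and Slc25a20, and in 3.86% of all 32851 windows, and IR1 in none of the 7 and in 1.14% of all. The closest DR1 matches are shown for Aldh9a1, Slc25a20 and Bbox1, the 3 genes with the fewest mismatches, and for Crot, whose best match is weaker. Crot was picked among equally weak matches for its levels, which followed those of Slc25a20 and Bbox1 (r of 0.83 and 0.70). A link between match and level was not tested. Sequences run 5' to 3' on the gene's strand, with the match in capitals and 8 bases on each side. Those of Aldh9a1 (chr1:167349839-167349867) and Slc25a20 (chr9:108662134-108662162) have 2 mismatches, and that of Bbox1 (chr2:110305793-110305821, minus strand) has 3, and 24.6% of all windows hold a match with up to 3. That of Crot (chr5:8997143-8997171, minus strand) has 4, as do the best matches of Slc22a5 and Cpt1a, which are not shown. A match with 4 lies past the limit of 2, and its share of all windows was not counted.
Aldh9a1: aattatctAGGCCAAAGGTCTtccagttc
Slc25a20: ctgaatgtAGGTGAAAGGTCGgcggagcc
Bbox1: ctctaatcAGAACAAAGGTCCcggcatgg
Crot: ttctggtcCGGCCTCAGGACAgcccagag
The match begins 144 bases before the start in Aldh9a1, 88 before it in Bbox1, 17 before it in Crot and 6 after it in Slc25a20. The RefSeq starts of Bbox1, Crot and Slc25a20 lie inside the genes as the authors' table draws them, so these distances hold for the RefSeq starts only. These are matches of letters only, and binding was not measured.

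The wider pathway was read from 7 gene lists. Of the list of known PPARA targets outside the 9 genes, 1 of 18 fell, none rose and 17 did not pass, with a median log2 fold change of -0.21 and 15 of 18 values negative. Over all genes tested 0.279% were called lower, 50.1% of values were negative and the median was -0.00. The gene that fell was the omega-hydroxylase Cyp4a14, from 23930 ± 7297 to 7832 ± 2830 normalized counts, 3.09-fold lower (limma adjusted p = 0.013). Cyp4a14 had a log2 fold change of -1.89 within numbers 1 to 3 and -1.36 within 4 to 6, where the call was lost (limma adjusted p = 0.0009 and 0.28, the range over 27 alternatives). The call was also lost in limma without trend (adjusted p = 0.056). The 1 list gene that passed within 4 to 6 was Fgf21, a fasting hormone of the liver, with a log2 fold change of 1.61 there in the opposite direction (limma adjusted p = 0.041). Over all 12 libraries Fgf21, named here after its values were seen, measured 53.5 ± 13.7 and 92.8 ± 63.1 (limma adjusted p = 0.79). Its log2 fold change over the 12 was 0.50 ± 0.41 (SE). With sets of equal size that is the mean of the values in both sets, so the value within 1 to 3 was below 0. The thioesterase Acot1 measured 1937 ± 847 and 744 ± 432 (limma adjusted p = 0.10) and passed once a term for the numbers was in the model (adjusted p = 0.014, limma) or the replicate number was a block (adjusted p = 0.025, limma), and the pantetheinase Vnn1 measured 2708 ± 1065 and 1657 ± 412. Reads shared among close relatives of Cyp4a14 and Acot1 could make their levels uncertain, which was not tested.

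Of 15 genes of mitochondrial beta-oxidation after the shuttle none passed, with a median of -0.15 and 13 negative values. The trifunctional protein subunits Hadhb (5835 ± 868 and 4445 ± 550) and Hadha (6899 ± 562 and 5648 ± 720) and the electron transfer dehydrogenase Etfdh (4854 ± 549 and 3850 ± 629) had the smallest p-values, with limma adjusted p-values of 0.19, 0.28 and 0.28. Of 15 genes listed for peroxisomal chain shortening and related steps none passed either (median -0.05, 9 negative). Their smallest p-values belonged to genes that measured higher in VPA_OCA, the trans-2-enoyl-CoA reductase Pecr (3449 ± 220 and 4551 ± 700), the racemase Amacr (2398 ± 149 and 2893 ± 423) and the dienoyl-CoA reductase Decr2 (5259 ± 659 and 6411 ± 1717). Pecr passed once that term was in the model (adjusted p = 0.023, limma).

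**Figure D5:**
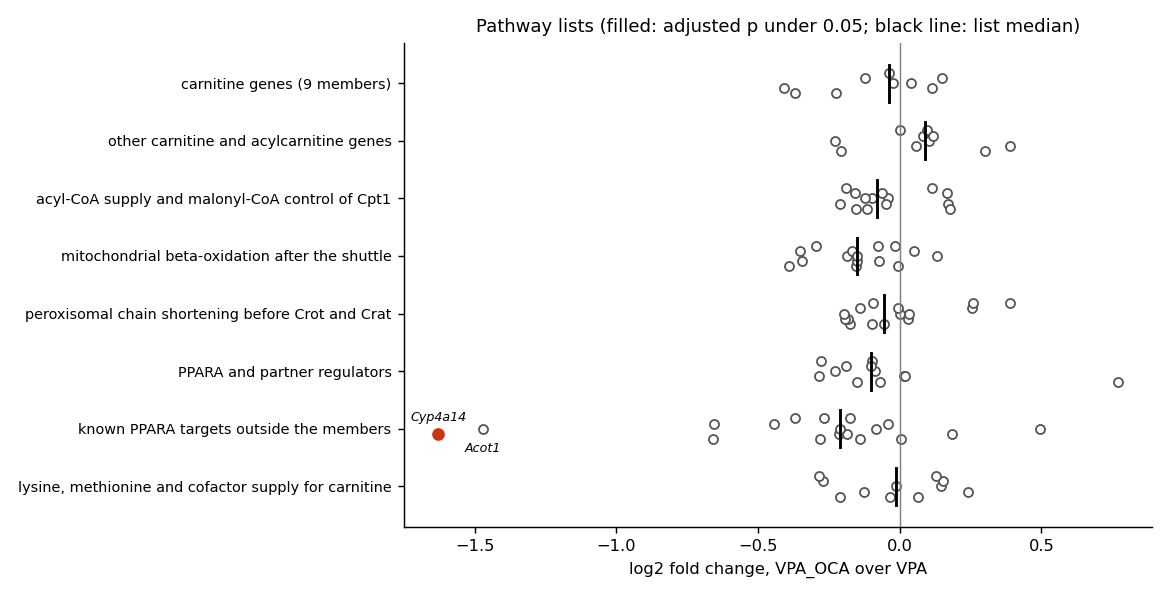
Log2 fold change of VPA_OCA over VPA (horizontal axis) for the 9 carnitine genes and for each gene tested in 7 pathway lists, with filled red points for an adjusted p under 0.05 and a black line at each list's median. Cyp4a14 is the filled point, and the 9 carnitine genes lie between -0.41 and 0.15.

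Of the 12 entries of other carnitine and acylcarnitine genes, 10 were tested and none passed (median 0.09, 2 negative); Slc22a16 was at 0 in every library and Slc6a14 reached at most 1.04. Cpt1b, the muscle form of Cpt1a, measured 86.2 ± 17.8 and 73.3 ± 7.25. In VPA replicates 4 and 5, with their muscle transcripts, Cpt1b was 92.7 and 57.1, inside or below the range of 71.8 to 103 of the other VPA libraries. Of 14 tested genes of acyl-CoA supply and malonyl-CoA control none passed (median -0.08). The acyl-CoA synthetase Acsl1 measured 13613 ± 1893 and 12272 ± 2046. The catalytic subunits of the energy sensor AMPK measured 176 ± 8.32 and 162 ± 5.21 (Prkaa1) and 927 ± 145 and 1031 ± 48.5 (Prkaa2).

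Of 12 regulators none passed (median -0.10, 9 negative). The receptors Hnf4a (10078 ± 931 and 8589 ± 640), Rxra (7948 ± 954 and 6553 ± 1026) and the FXR gene Nr1h4 (2746 ± 556 and 2250 ± 372) had the smallest p-values, with limma adjusted p-values of 0.43, 0.45 and 0.56. The value furthest from 0 in the list went the other way. It was that of Nr0b2, named here after its values were seen, with a log2 fold change of 0.77 (limma adjusted p = 0.57). Of 11 genes listed for the lysine, methyl group and cofactor metabolism around carnitine synthesis none passed (median -0.01). The mitochondrial hydroxymethyltransferase Shmt2 measured 3811 ± 397 and 4496 ± 371, the methyltransferase Smyd2 412 ± 28.5 and 456 ± 34.5, and the methionine adenosyltransferase Mat1a 87185 ± 4484 and 73353 ± 13741.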

How the data were processed

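RNA sequencing of 12 livers (6 VPA, 6 VPA_OCA) was read from 1 table of the whole series, with groups and replicate numbers from the sample titles. Libraries were made from Trizol-extracted total RNA with a TruSeq kit, per the labels' protocols. The submitters' processing notes name edgeR and GRCm38.p5; the aligner, the counter and whether strand was used: not given in the sources used here. The signal analysed is the deposited normalized count, per the file headers. The authors' FPKM, p-values, adjusted p-values, log2 ratios, GC fraction and other values (gene length in bases) are also deposited, per the file headers, and the FPKM equal the normalized count over length and column total (median ratio 0.9999 to 1.0001). Between 79.8% and 84.6% of low values lay within 0.1 of a whole multiple of the commonest low value, so reads were not recovered and no count model was run; the design named limma for this case. Cells with a decimal comma and exponent (10536 log2 ratios, 238 p-values, 89 normalized counts and 88 adjusted p-values) were divided by 1000. The authors' adjusted p-values recomputed over 12517 genes then differed by at most 0.538%. A spreadsheet had turned 26 symbols into dates, which were restored by gene ID. No column of per-sample values was left unused.

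Fits used limma 3.58.1 (trend, group as the only term) in R 4.3.3, with figures from matplotlib 3.10.9, and were tested on simulated data. The 9 genes, the 7 pathway lists and the alternatives were chosen with earlier results of these data known. Named were all 9 genes, from each list the 3 with the smallest p and any that passed, and the 2 genes most like each of the 9. Fgf21 and Nr0b2 were named outside this rule, after their values were seen. The list entry Acbp is not a symbol of the table. Same-numbered libraries deviated together (r 0.15 to 0.48 over 11481 genes, above 0.1 in all 6 pairs), so the replicate block is given where it moves a count or a call. In 4 of the 6, however, a differently numbered VPA_OCA library matched better (r 0.32 to 0.64), each from the same set of numbers, so the correlation is not specific to the number. The labels give 6 mice per group.

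Alternatives were other filters (none, or 10), pseudocounts (0.1 and 5), scalings, FPKM with a pseudocount of 0.1, limma without trend or with array weights, the block, the number sets, thresholds of 0.10 and 0.01, and libraries left out.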

Additional observations from a re-analysis of the deposited data

Results flagged for a closer look

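In 60 sets of 6 values (9 carnitine genes and 21 genes named from the lists for the smallest p, in each group), 1 held a library far from the other 5. By chance about 1 in every 20 sets does so, so 1 in 60 is not more than chance gives. Etfdh measured 5866 normalized counts in VPA replicate 1, against 4424 to 4940 in the other 5 VPA libraries. None of the 9 carnitine genes had such a library.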

How the results depend on the processing

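The count of carnitine genes called stayed at 0 in all 29 alternatives except numbers 1 to 3 alone, where it was 1 (Crat); with 1 library left out it was 0 throughout, and the median log2 fold change of the 9 ran from -0.18 to 0.04. The count over all genes was 210 with the replicate block, 404 with the term for the numbers, 223 at a threshold of 0.10, 62 at 0.01 and 92 to 146 with 1 library left out. The block changed no call of a carnitine gene. Slc22a5, Cpt2, Crat, Slc25a20 and Aldh9a1 kept their sign in all 27 alternatives of each, but not always a size apart from 0. Crat ran from -0.80 within numbers 1 to 3 to -0.01 within 4 to 6, and Aldh9a1 from 0.27 to 0.03 in the same sets. Directions of the genes nearest to 0 did not hold. Tmlhe was -0.02 within numbers 1 to 3, -0.05 without both VPA 4 and 5, and -0.04 to 0.16 with 1 library left out (negative without VPA 5, VPA 6 or VPA_OCA 1). Cpt1a was 0.01 within 4 to 6 and -0.13 to 0.04 with 1 left out (positive without VPA 5 or VPA_OCA 6). Crot was 0.26 within 4 to 6 and -0.18 to 0.15 with 1 left out (positive without VPA 1, 2 or 3 or VPA_OCA 3 or 6). Bbox1 was -0.01 without both VPA 4 and 5, and Prkaa2 -0.02 within 1 to 3. The count for the PPARA target list was 0 in limma without trend and at a threshold of 0.01, 2 with array weights, the block or the term for the numbers, and 1 to 2 with 1 library left out (2 without VPA 4 or VPA_OCA 2). The peroxisomal list had 1 call with the term for the numbers. The second gene was Acot1 in each case of 2. The list's 1 call within 4 to 6 was Fgf21 and not Cyp4a14. The causes were not tested. With 6 libraries per group the standard errors of the 9 genes ran from 0.10 to 0.28 on the log2 scale, which sets the smallest difference that could be seen.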
